A study of Mus musculus with 6 samples.

Results

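The SLC25 family, the mitochondrial solute carriers, was examined in RNA-seq of mouse gastrocnemius (GAS) muscle. Members were taken as every gene whose symbol is *Slc25a* followed by a number, which gave 47 of the 24532 genes in the table. Of these, 40 had 60 or more counts summed over the 6 libraries and were tested, 4 had fewer counts, and 3 had no count in any library. The libraries came from 3 mice labelled WT, which are *Sirt6* flox/flox, and 3 mice labelled *Sirt6* KO, which carry *Myl1-Cre* with *Sirt6* flox/flox. Both groups therefore share the floxed *Sirt6* alleles, and no library here comes from mice with the *Cre* alone. All 6 animals were 20 weeks old on a C57BL/6 background per the labels, and male per the methods, with 1 library for each animal. *Myl1-Cre* is active mainly in fast (type II) fibres after they stop dividing, so slow fibres and the other cells of the muscle can keep *Sirt6*.

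The family lines the inner mitochondrial membrane, which is otherwise largely closed to charged solutes. Each carrier binds its substrate from one side, changes shape and releases it on the other, usually in exchange for a second solute. Through these exchanges mitochondria import ADP, phosphate, fatty acyl groups, amino acids and cofactors and return ATP and metabolic intermediates to the cytosol. In muscle the ADP/ATP carrier and the phosphate carrier are known for supplying the ATP synthase and for exporting the ATP used in contraction. A few members sit elsewhere, among them *Slc25a17* in peroxisomes and *Slc25a46* in the outer mitochondrial membrane.

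The label of each library was first set against the targeted gene. *Sirt6* was at 2.77, 2.23 and 2.88 normalized CPM (counts scaled to library size with TMM factors) in the WT libraries and at 7.81, 7.44 and 6.68 CPM in those labelled *Sirt6* KO. Every library labelled *Sirt6* KO was thus above every WT library. The log2 fold change was 1.48 (SE 0.17, edgeR quasi-likelihood test, Benjamini-Hochberg adjusted p = 0.0113). Counts over the whole gene do not separate deleted from intact exons. Every direction in the text rests on the labels, and "lower" or "higher" means the libraries labelled *Sirt6* KO against the WT libraries. Totals ran from 44845763 to 63016899 counts per library, so that 1 count was worth 0.0165 to 0.0212 CPM. The 9 fast fibre genes checked, such as *Myh4* and *Tnnt3*, summed to between 129745 and 222018 CPM, the highest sum of the marker lists, so the markers of a mostly fast muscle were present. WT 3 stood apart from the other WT libraries in slow fibre genes (1391 CPM summed over 9 genes, against 7313 and 8185), and calls that change without it are given both ways. In bulk muscle, fewer cells of a type and less RNA per cell cannot be told apart.

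Short stretches of promoter sequence are shown for 3 members because they carry the only full cyclic AMP response elements or oestrogen-related receptor half-sites found among the family. A window of 300 bases (250 before and 50 after each annotated start, RefSeq, GRCm38.p6) was at hand for 36 of the 47 members. The stretches are written on the strand of the gene, 5′ to 3′, with the motif in capitals.
Slc25a25, chr2:32424179-32424246, minus strand: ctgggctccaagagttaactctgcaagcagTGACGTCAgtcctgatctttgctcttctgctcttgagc
Slc25a36, chr9:97111165-97111232, minus strand: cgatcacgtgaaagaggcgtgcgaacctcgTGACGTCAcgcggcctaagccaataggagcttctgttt
Slc25a34, chr4:141623917-141623983, minus strand: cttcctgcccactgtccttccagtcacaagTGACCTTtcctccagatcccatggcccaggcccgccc
The element TGACGTCA, the site bound by CREB, was searched on both strands and was found in 2 of the 36 members (5.56%), beside 2.6% of all 18245 genes with a window. In *Slc25a25* it lay 150 bases before 1 of 3 annotated starts, inside the gene but in no annotated exon, and so in an intron of the longer transcripts. In *Slc25a36* it lay 161 bases before the only listed start and outside any annotated gene. The shorter half-site TGACG, which the full element contains on both strands, was in 12 of 36 windows (33.3%) against 26.6% of all genes, among them those of *Slc25a3* and *Slc25a33*. The half-site AAGGTCA of oestrogen-related receptors was in 1 window (2.78%, against 4.7% of all genes), that of *Slc25a34*, where it reads TGACCTT on the printed strand 119 bases before the start and outside any annotated gene. The NRF1 core GCGCATGC was in the windows of *Slc25a31* and *Slc25a54* (5.56%, against 3.96%), both without a count in this muscle. A match describes these letters and not a bound site.

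The level of the family was set by few genes. On the FPKM scale, which allows genes of different length to be compared, *Slc25a4*, the muscle and heart ADP/ATP carrier, held 72.5% of the summed FPKM of all 47 members, at a mean of 2895 FPKM over 6 libraries. *Slc25a3*, the phosphate carrier, followed with 467 FPKM and 11.7%. The mean level of *Slc25a11*, the oxoglutarate/malate carrier, was 155 FPKM and that of *Slc25a12*, the aspartate/glutamate carrier of muscle and brain, 148 FPKM. Both belong to the malate-aspartate shuttle, which passes reducing equivalents from the cytosol into mitochondria, and their levels lay close together, with overlapping ranges. The next levels were those of *Slc25a25*, a calcium-dependent ATP-Mg/phosphate carrier (74.4 FPKM), and *Slc25a5*, the more widely expressed ADP/ATP carrier (34.2 FPKM). *Slc25a20*, which brings acylcarnitines in for fatty acid oxidation, was at 30.5 FPKM, *Slc25a39*, a glutathione carrier, at 21.2 FPKM, *Slc25a51*, the NAD carrier, at 15.3 FPKM, and *Slc25a42*, the coenzyme A carrier, at 15.0 FPKM. The first 10 genes together made up 96.5% of the family's summed FPKM.

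**Figure D1:**
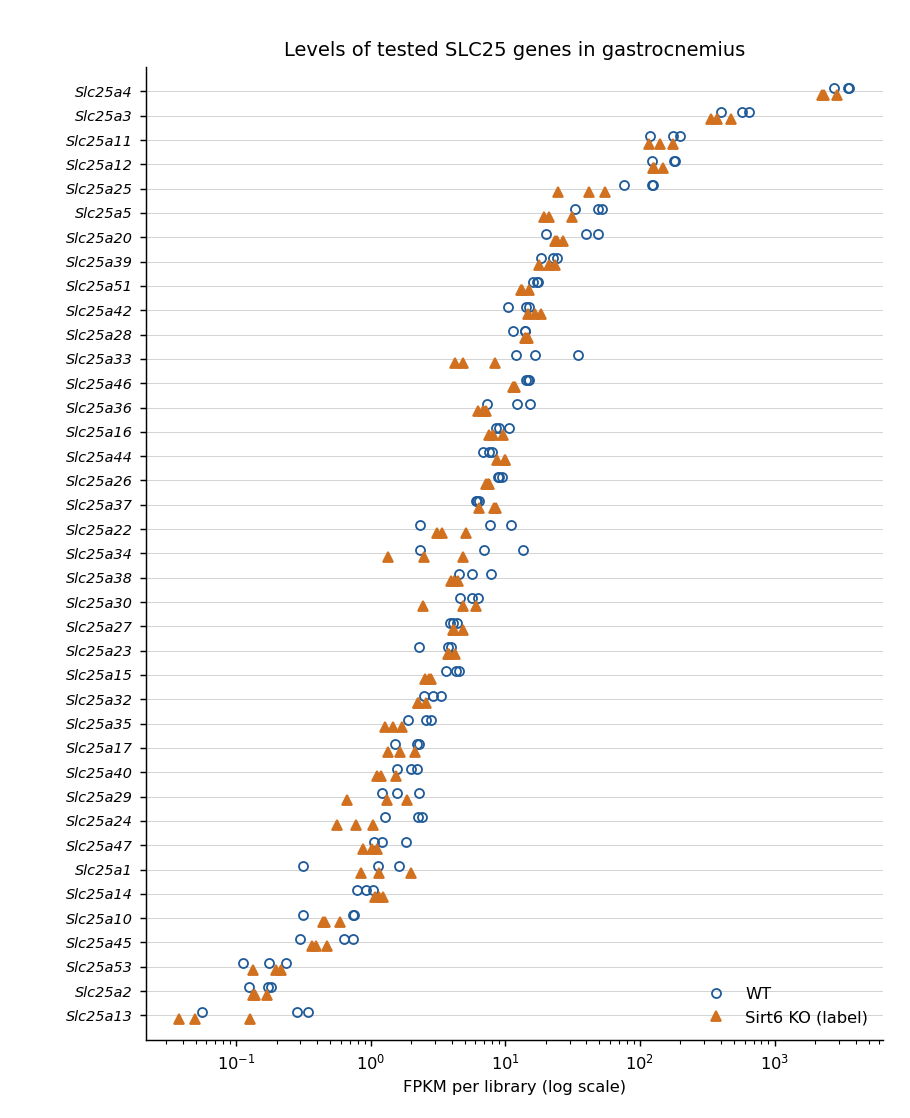
Levels of 39 tested SLC25 genes, one row per gene ordered by mean level, with FPKM per library on a log axis (open circles, 3 WT libraries, and triangles, 3 libraries labelled *Sirt6* KO). *Slc25a4* lies above every other plotted member in each library, and the points of *Slc25a25*, *Slc25a33* and *Slc25a24* separate by label.

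The silent members were accounted for as well. *Slc25a31*, the ADP/ATP carrier of germ cells, *Slc25a48*, a choline transporter, and the orphan *Slc25a54* had no count in any of the 6 libraries. *Slc25a18*, a glutamate carrier of brain, had 4 counts in WT 1 only, and *Slc25a21*, the oxodicarboxylate carrier, had 2 counts in WT 3 only. The orphan *Slc25a43* had 3 counts in WT 3 and 3 in *Sirt6* KO 1. *Slc25a41*, an ATP-Mg/phosphate carrier, lay just under the limit with 58 counts in all, 0, 6 and 20 in WT and 16, 8 and 8 in *Sirt6* KO. The tested member nearest to the limit was *Slc25a2*, an ornithine carrier, with 82 counts.

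Summed over all 47 members, the family took up 4847, 5073 and 3739 FPKM in WT and 3116, 3987 and 3213 FPKM in those labelled *Sirt6* KO. Means were 4553 ± 714 and 3439 ± 478 FPKM (SD, n = 3 each). *Sirt6* KO 1 to 3 all lay below WT 1 and WT 2, but *Sirt6* KO 2 lay above WT 3, so the groups overlapped, and an exact two-sided permutation test gave p = 0.2, where 0.1 is the smallest that 3 against 3 allows. *Slc25a4* kept a similar share of the sum, 72.4% ± 2.0 in WT and 72.8% ± 0.24 in *Sirt6* KO (SD, n = 3 each; exact permutation p = 0.7). The FPKM do not carry the TMM factors, which were 1.113, 1.049 and 0.910 in WT and 1.003, 0.980 and 0.958 in *Sirt6* KO. Mean FPKM of *Slc25a4* was 3288 in WT and 2503 in *Sirt6* KO, where the edgeR fit put *Sirt6* KO at 85.4% of WT. The difference between the FPKM sums is therefore not on the scale of the fits below.

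Gene by gene, 5 of the 40 tested members changed. *Slc25a25*, *Slc25a24*, *Slc25a33* and *Slc25a15* fell under the *Sirt6* KO label and *Slc25a42* rose (edgeR quasi-likelihood test, Benjamini-Hochberg adjusted p under 0.05 over all 13670 genes tested). That is 12.5% of the members, beside 16.4% of all genes tested, and by direction 4 members beside 8.45% of genes lower and 1 member beside 7.93% higher. At an unadjusted p under 0.05, 7 members were lower and 5 higher, which is 30% of those tested beside 35.6% of all genes. DESeq2 called 6 lower and 3 higher, the 5 above among them, or 22.5% of the members beside 26.2% of all genes. The log2 fold change was below 0 for 30 members and above 0 for 10, with a median of -0.15, where the median of all genes was -0.02. Of all 13670 genes tested, 7054 were below 0 and 6616 above 0. The median size of the log2 fold change, without its sign, was 0.27 for the members and 0.35 for all genes. The 3 WT levels and the 3 *Sirt6* KO levels did not overlap for 14 members, 10 lower and 4 higher, which is 35% of those tested beside 40.1% of all genes. By direction, 2689 of the 13670 genes were lower without overlap and 2795 higher. In number of calls, and in separation without regard to direction, the family was near the background of this comparison. Its signs were less evenly split than those of all genes, and this was not tested. The values below are those of its single members.

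**Figure D2:**
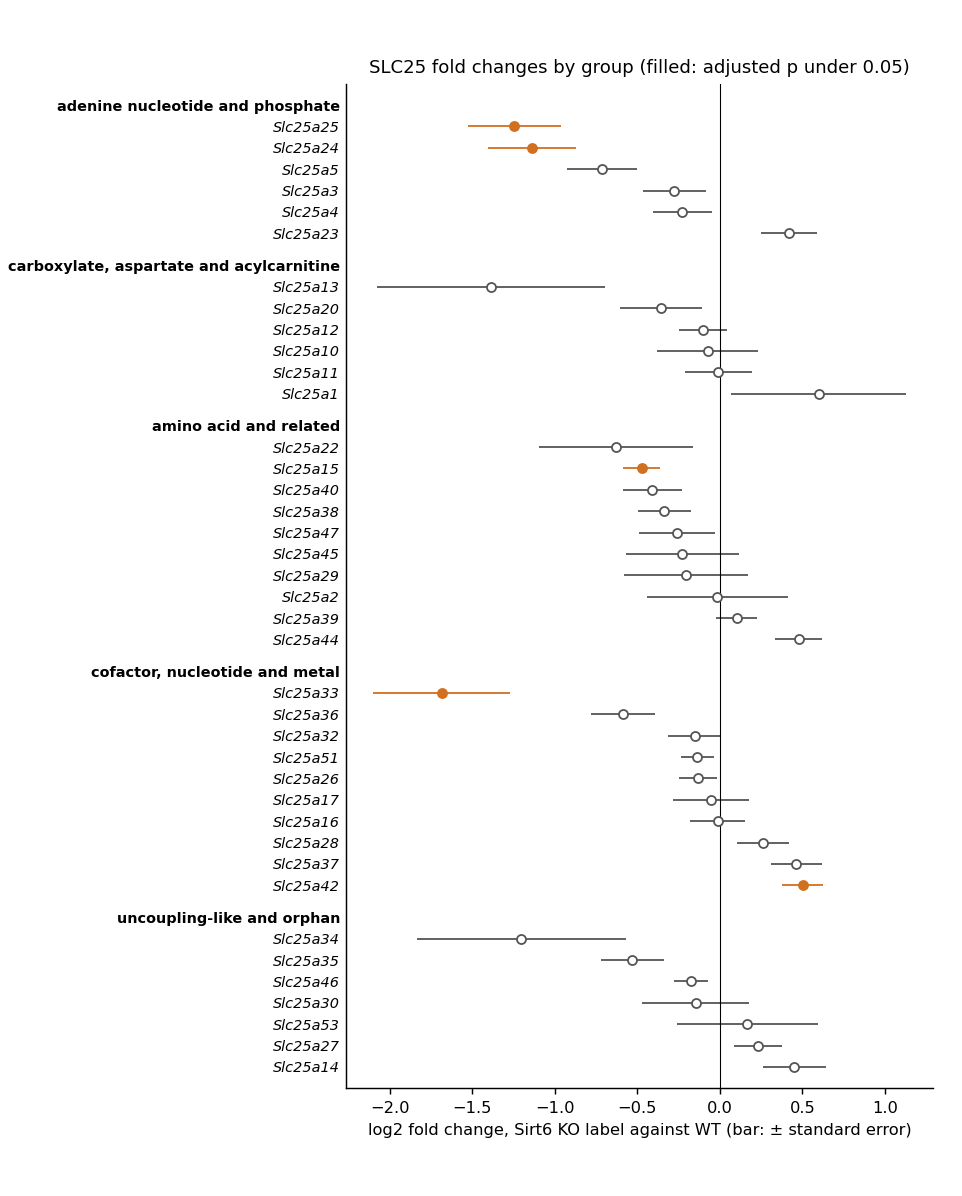
Log2 fold change of 39 tested members (points, with bars of 1 standard error from the edgeR fit), arranged by transport group, with the 5 genes past the adjusted p threshold filled. The filled genes lie in 3 of the 5 groups, and 29 of the 39 points are left of 0.

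The transport groups are small, and their counts stand beside 16.4% of all genes called and 8.45% called lower. Among the adenine nucleotide and phosphate carriers, 2 of 6 tested members fell (33.3%), both of them calcium-dependent. These carriers move ATP-Mg against phosphate and so set the adenine nucleotide content of the matrix, and calcium on their outer domain switches them on. *Slc25a25* (chromosome 2, 32414487 to 32451470, GRCm38) was at 391.6, 418.3 and 294.2 CPM in WT and at 208.1, 161.3 and 96.6 CPM in *Sirt6* KO. Every WT library was above every library labelled *Sirt6* KO, and mean levels were 368 ± 65 and 155 ± 56 CPM (SD, n = 3 each). The log2 fold change was -1.24 (SE 0.28, adjusted p = 0.0298), so *Sirt6* KO stood at 42.2% of the WT level. The gene overlaps *Naif1* in the RefSeq annotation, and reads in the shared stretch cannot be assigned with certainty.

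*Slc25a24* (chromosome 3, 109123149 to 109168409), the relative of *Slc25a25* found in many tissues, was much less abundant, at 1.39 FPKM on average. It was at 8.08, 8.13 and 5.27 CPM in WT and at 4.19, 3.18 and 2.38 CPM in *Sirt6* KO. The groups did not overlap, with *Sirt6* KO 1 nearest to WT 3, and the log2 fold change was -1.14 (SE 0.27, adjusted p = 0.0330), or 45.5% of WT. The remaining relative, *Slc25a23*, had a positive log2 fold change of 0.42 that did not pass the test (SE 0.17, adjusted p = 0.123), with levels of 12.5, 14.1 and 9.28 CPM in WT and 14.9, 17.1 and 15.8 CPM in *Sirt6* KO.

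The 3 calcium-dependent genes are also given as shares of one another. Of the FPKM summed over *Slc25a23*, *Slc25a24* and *Slc25a25*, the share of *Slc25a25* was 95.3%, 95.2% and 95.5% in WT and 92.0%, 89.4% and 84.9% in *Sirt6* KO. The share of *Slc25a23* was 2.87%, 3.03% and 2.85% in WT and 6.24%, 8.97% and 13.2% in *Sirt6* KO. Because *Slc25a25* made up most of the sum in every library, these shares follow from its own fall and are a description only.

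*Slc25a4* and *Slc25a3*, the most abundant members of the family, did not pass the edgeR test. *Slc25a4* was at 3812, 4217 and 3736 CPM in WT and at 2962, 3890 and 3190 CPM in *Sirt6* KO, where *Sirt6* KO 2 lay within the WT range. Its log2 fold change was -0.23 (SE 0.18, adjusted p = 0.390). *Slc25a3* was at 855, 1030 and 738 CPM in WT and at 604, 863 and 700 CPM in *Sirt6* KO, with *Sirt6* KO 2 above WT 1 (log2 fold change -0.28, SE 0.19, adjusted p = 0.334).

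*Slc25a5* lay just outside the threshold of the edgeR fit. It was at 62.2, 71.6 and 51.6 CPM in WT and at 29.6, 49.3 and 34.0 CPM in *Sirt6* KO, without overlap, and its log2 fold change was -0.72 (SE 0.21, adjusted p = 0.0586). DESeq2 called it lower (adjusted p = 0.0113), and so did edgeR without WT 3 (log2 fold change -0.83, adjusted p = 0.0315). EdgeR without *Sirt6* KO 2 also called it lower (log2 fold change -0.95, adjusted p = 0.0386). The other edgeR fits lacking a library did not, with adjusted p up to 0.184. With the GC trend described below removed, *Slc25a5* was not called (log2 fold change -0.71, adjusted p = 0.0780). As a share of the FPKM of both ADP/ATP carriers, *Slc25a5* made up 1.37%, 1.43% and 1.16% in WT and 0.847%, 1.07% and 0.901% in *Sirt6* KO (exact permutation p = 0.1). Its coding sequence resembles that of *Slc25a4* and has processed copies in the genome, and how the counting treated reads with several matches is not given in the sources used here.

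**Figure D3:**
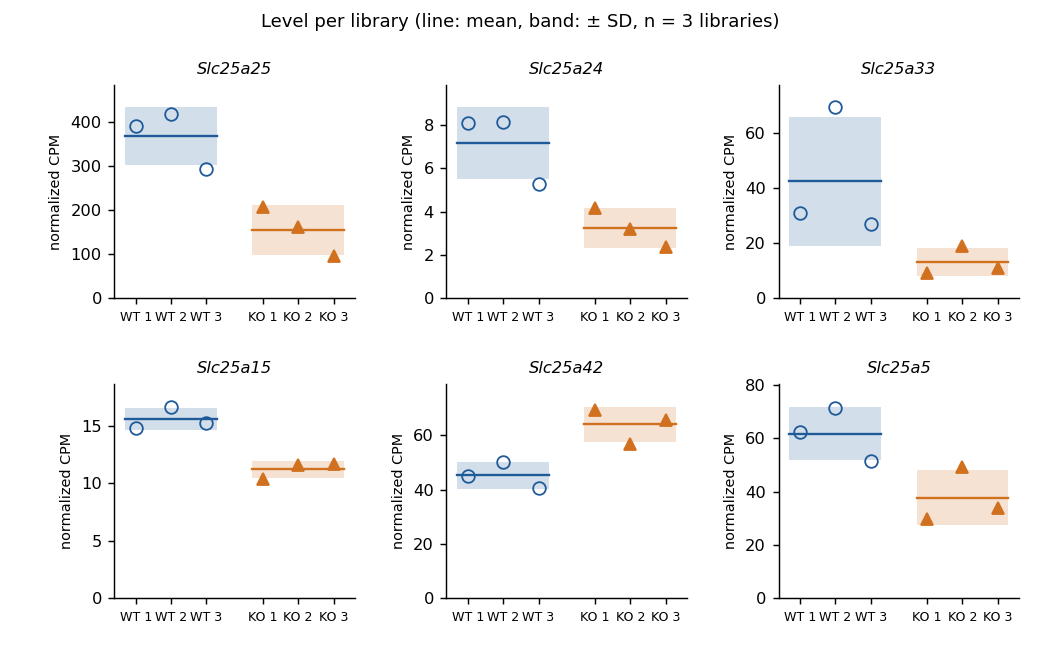
Normalized CPM per library for the 5 members past the adjusted p threshold and for *Slc25a5*, the adenine nucleotide carrier nearest to it, with WT libraries as open circles, libraries labelled *Sirt6* KO as triangles, lines at group means and bands of ± SD (n = 3 libraries each). In none of the 6 panels do the groups overlap, and WT 2 is the highest library in the *Slc25a33* panel.

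The carriers of carboxylates, aspartate and acylcarnitines feed the citric acid cycle, the malate-aspartate shuttle and fatty acid oxidation, and none of the 6 tested members passed the edgeR test. None had an unadjusted p under 0.05, DESeq2 called 0, and in none did the groups separate. *Slc25a11* was at 322, 395 and 268 CPM in WT and at 258, 395 and 327 CPM in *Sirt6* KO, overlapping (log2 fold change -0.0086, SE 0.20, adjusted p = 0.980). *Slc25a12* was at 522, 563 and 439 CPM in WT and at 435, 521 and 463 CPM in *Sirt6* KO, also overlapping (log2 fold change -0.10, SE 0.15, adjusted p = 0.645). *Slc25a20* was at 70.7, 91.9 and 43.2 CPM in WT and at 51.2, 57.4 and 52.0 CPM in *Sirt6* KO. The lowest of its 6 levels was in WT 3, and the log2 fold change was -0.36 (SE 0.25, adjusted p = 0.334). Single libraries decided this value, which was -0.09 without WT 2 (adjusted p = 0.818) and -0.60 without WT 3, where *Slc25a20* was called lower (adjusted p = 0.0186).

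The other 3 tested members of this group were scarce. *Slc25a1*, the citrate carrier, *Slc25a10*, the dicarboxylate carrier, and *Slc25a13*, the liver-type aspartate/glutamate carrier, had mean levels of 1.17, 0.546 and 0.149 FPKM. Their log2 fold changes were 0.60 (SE 0.53), -0.07 (SE 0.31) and -1.39 (SE 0.69), with adjusted p of 0.450, 0.885 and 0.193. *Slc25a13*, with 161 counts in all, had the second most negative fold change of the family after *Slc25a33*, and its standard error was the largest of the 40. Without WT 3 it was called lower at -1.82 (adjusted p = 0.0432). It held 0.130% ± 0.075 of the FPKM of the *Slc25a12* and *Slc25a13* pair in WT and 0.0516% ± 0.030 in *Sirt6* KO (SD, n = 3 each, overlapping).

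Of the 10 tested carriers of amino acids and related solutes, *Slc25a15* fell and no other member passed the edgeR test, while DESeq2 also called *Slc25a44* higher. *Slc25a15* (chromosome 8, 22375550 to 22398621) exchanges ornithine for citrulline and is known from the urea cycle. It was at 14.8, 16.7 and 15.3 CPM in WT and at 10.4, 11.6 and 11.7 CPM in *Sirt6* KO, without overlap. Its log2 fold change of -0.47 (SE 0.11, adjusted p = 0.0344) put *Sirt6* KO at 72.0% of WT. The change was small beside those of *Slc25a25* and *Slc25a24*, and its standard error was the smallest of the 5 called members.

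*Slc25a44*, the carrier of branched-chain amino acids, was at 26.6, 25.6 and 34.7 CPM in WT and at 41.1, 36.98 and 42.9 CPM in *Sirt6* KO. The groups were separate, and the log2 fold change of 0.48 fell short of the threshold in edgeR (SE 0.14, adjusted p = 0.0599). It passed in DESeq2 (adjusted p = 0.0213) and in edgeR without WT 3 (log2 fold change 0.63, adjusted p = 0.0082). No other edgeR fit lacking a library called *Slc25a44*, with adjusted p of 0.0813 to 0.189 in those fits. With the GC trend described below removed, its log2 fold change was 0.34 and it was not called (adjusted p = 0.166). An overlapping long non-coding RNA, *Gm33513*, is annotated at this gene. *Slc25a39* was at 36.9, 42.5 and 37.3 CPM in WT and at 41.7, 47.0 and 36.7 CPM in *Sirt6* KO, with overlapping groups (log2 fold change 0.10, SE 0.12, adjusted p = 0.585). *Slc25a38*, the glycine carrier that serves haem synthesis, and *Slc25a40*, the other glutathione carrier, did not overlap between groups, with log2 fold changes of -0.34 (adjusted p = 0.175) and -0.41 (adjusted p = 0.145). *Slc25a2*, *Slc25a22*, *Slc25a29*, *Slc25a45* and *Slc25a47* overlapped, at log2 fold changes of -0.63 to -0.02. The first of this range, that of *Slc25a22*, was -1.02 without WT 3 and was then called (adjusted p = 0.0333).

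The 11 carriers of cofactors, nucleotides and metals held the most negative fold change and the only called rise of the family. *Slc25a33* (chromosome 4, 149744036 to 149774267) brings pyrimidine nucleotides into mitochondria, where they are needed for mitochondrial DNA and RNA. It was at 31.1, 69.4 and 27.2 CPM in WT and at 9.40, 19.0 and 11.2 CPM in *Sirt6* KO. The groups were separate although WT 2 was more than the other WT libraries together, and the means were 42.6 ± 23.3 and 13.2 ± 5.1 CPM (SD, n = 3 each). The log2 fold change was -1.69 (SE 0.41, adjusted p = 0.0363), or 31.1% of WT.

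*Slc25a36*, the second pyrimidine nucleotide carrier, whose promoter stretch is printed above, was at 46.1, 39.6 and 27.0 CPM in WT and at 22.7, 26.6 and 25.6 CPM in *Sirt6* KO. WT 3 lay just above the highest *Sirt6* KO library, and the log2 fold change of -0.59 did not pass the edgeR test (SE 0.19, adjusted p = 0.0787). DESeq2 called it lower (adjusted p = 0.0338), as did edgeR without WT 3 (log2 fold change -0.78, adjusted p = 0.0070). With the GC trend described below removed, its log2 fold change was -0.29 (adjusted p = 0.364). The share of *Slc25a33* in the FPKM of the pair was 62.9% ± 10.9 in WT and 45.3% ± 7.5 in *Sirt6* KO (SD, n = 3 each), overlapping.

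*Slc25a42* (chromosome 8, 70184340 to 70212281) exchanges coenzyme A for adenine nucleotides and supplies the matrix with the acyl carrier of fatty acid and pyruvate oxidation. It was at 45.0, 50.2 and 40.5 CPM in WT and at 69.5, 56.9 and 65.7 CPM in *Sirt6* KO, so that every library labelled *Sirt6* KO was above every WT library. The log2 fold change was 0.50 (SE 0.13, adjusted p = 0.0380), a 1.42-fold level. On the deposited FPKM scale the groups overlapped, with *Sirt6* KO 2 just below WT 2. These levels were 14.3, 14.90 and 10.5 FPKM in WT and 18.5, 14.86 and 16.8 FPKM in *Sirt6* KO. With a trend over GC content removed from each library, a fit added after the data were seen, its log2 fold change was 0.29 and it was no longer called (adjusted p = 0.175).

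The iron carriers did not pass the edgeR test. *Slc25a37*, the mitoferrin of developing red cells, had a log2 fold change of 0.46 (SE 0.15, adjusted p = 0.0772) and *Slc25a28*, the mitoferrin of other tissues, one of 0.26 (SE 0.16, adjusted p = 0.265). DESeq2 called *Slc25a37* higher (adjusted p = 0.0410), as did edgeR without WT 3 (log2 fold change 0.58, adjusted p = 0.0281). That was the only 1 of the 6 edgeR fits lacking 1 library to call it, with adjusted p up to 0.237 in these fits. Levels of *Slc25a37* were 25.2, 26.8 and 32.3 CPM in WT and 40.6, 32.2 and 43.5 CPM in *Sirt6* KO, where *Sirt6* KO 2 lay just below WT 3. *Slc25a51* was at 76.6, 80.5 and 86.1 CPM in WT and at 78.3, 71.6 and 71.3 CPM in *Sirt6* KO, overlapping (log2 fold change -0.14, SE 0.10, adjusted p = 0.360). The carriers of folate and FAD (*Slc25a32*) and *S*-adenosylmethionine (*Slc25a26*), the peroxisomal *Slc25a17* and the coenzyme A related *Slc25a16* overlapped too, at log2 fold changes of -0.15 to -0.01. These had smaller fold changes than any called member.

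No tested member of the uncoupling-like and orphan group passed the edgeR test, out of 7. DESeq2 called 0, and 1 was lower and 1 higher at an unadjusted p under 0.05, namely *Slc25a35* (log2 fold change -0.53, SE 0.19, adjusted p = 0.0944) and *Slc25a14* (0.45, SE 0.19, adjusted p = 0.140). *Slc25a35* overlaps *Rangrf* in the annotation, and it was called lower without WT 3 (log2 fold change -0.61, adjusted p = 0.0478). *Slc25a46*, which acts in the shaping of mitochondria, was separate between groups by a small margin, at 63.5, 70.2 and 74.9 CPM in WT and 60.3, 62.7 and 61.8 CPM in *Sirt6* KO (log2 fold change -0.17, SE 0.10, adjusted p = 0.257). *Slc25a27*, *Slc25a30* and *Slc25a53* had log2 fold changes of -0.15 to 0.23 and overlapping groups.

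*Slc25a34*, the orphan whose stretch with the receptor half-site is printed above, had the widest spread of its group. It was at 18.5, 38.6 and 7.55 CPM in WT and at 4.29, 15.6 and 8.19 CPM in *Sirt6* KO, and WT 3 lay below *Sirt6* KO 2 and 3. Its log2 fold change of -1.20 did not pass the test (SE 0.63, adjusted p = 0.216), nor did that of -1.61 without WT 3 (adjusted p = 0.0643). The carrier is described in the text for this spread, chosen after its values were seen.

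The ordering of libraries in *Slc25a34* recurred across the family. WT 3 was the lowest WT library in 23 of 40 members (57.5%, against 37.4% of all genes tested) and *Sirt6* KO 2 the highest *Sirt6* KO library in 21 (52.5%, against 36.2%). Both held at once for 17 members (42.5%, against 19.2%), among them all 6 tested carriers of carboxylates, aspartate and acylcarnitines and 4 of 6 adenine nucleotide and phosphate carriers. The same ordering held for all 9 slow fibre genes, which include *Myh7*, *Tnni1* and *Myl2*. Their summed level was 7313, 8185 and 1391 CPM in WT and 1677, 4807 and 2075 CPM in *Sirt6* KO, and it held too for all 5 erythroid genes, such as the globins, with sums of 297, 291 and 46.6 CPM in WT and 110, 181 and 80.3 CPM in *Sirt6* KO. The 6 adipocyte genes summed to 46.1, 54.6 and 4.76 CPM in WT and 15.5, 123 and 55.2 CPM in *Sirt6* KO, and 5 of them had this order. None of the 9 slow fibre, 5 erythroid and 6 adipocyte genes passed the edgeR test, none had an unadjusted p under 0.05, and DESeq2 called 0. All 9 slow fibre and all 5 erythroid genes had log2 fold changes below 0 (medians -1.11 and -0.82). All 6 adipocyte genes had log2 fold changes above 0 (median 0.82). Other lists shared the low level of WT 3 but not the order of the *Sirt6* KO libraries. WT 3 was the lowest WT library in all 6 endothelial, 5 fibroblast and 5 Schwann cell genes, and *Sirt6* KO 2 the highest of its label in 2, 1 and 2 of them. All 5 Schwann cell genes had log2 fold changes below 0 (median -0.58), and 1 was called lower by edgeR and by DESeq2. Of the endothelial and fibroblast genes edgeR called 0, with 2 of each list at an unadjusted p under 0.05, and DESeq2 called 1 lower in each. Of the 9 fast fibre genes 8 had log2 fold changes above 0 and 1 below (median of all 9, 0.41). EdgeR called 0 of the fast fibre genes and DESeq2 called 2 higher, beside 1750 of 13670 genes. Every one of these sums overlapped between the groups, and no slow fibre gene was at 0 in any library, while the erythroid *Hbb-bt* and the adipocyte *Lep* were at 0 in some. The part of these cell types in the levels of the carriers was not tested. The fit that follows takes in the slow fibre sum alone. It cannot separate that sum from the erythroid genes, which share its order of libraries.

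**Figure D4:**
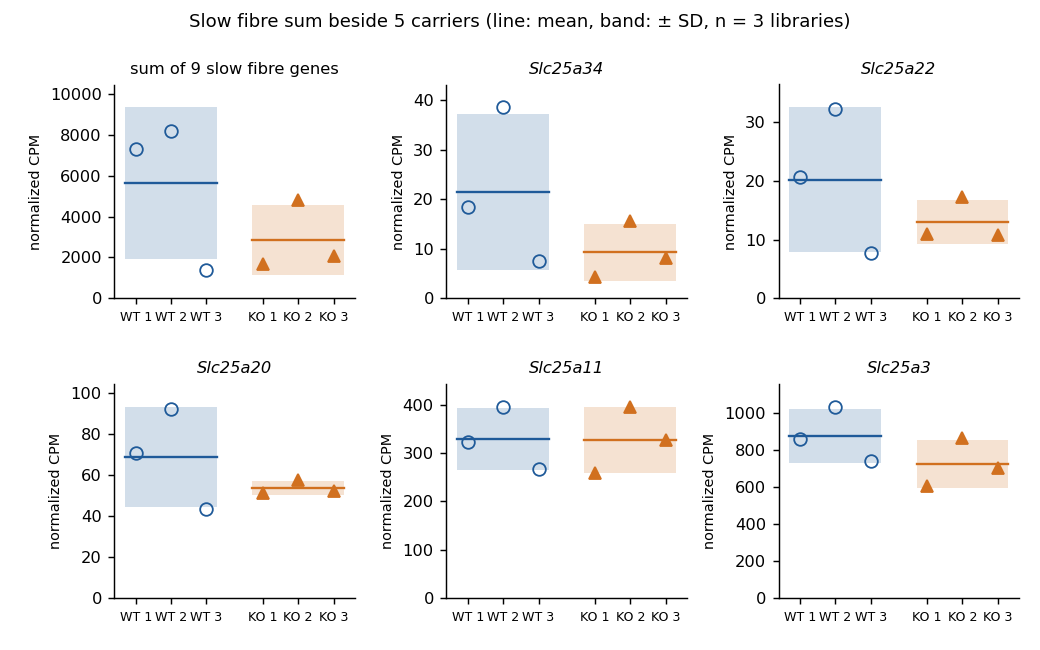
Summed normalized CPM of 9 slow fibre genes and normalized CPM of 5 carriers chosen after their values were seen, per library, with WT libraries as open circles, libraries labelled *Sirt6* KO as triangles, lines at group means and bands of ± SD (n = 3 libraries each). In all 6 panels WT 3 is the lowest WT library and *Sirt6* KO 2 the highest library labelled *Sirt6* KO.

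With the slow fibre sum as a covariate, a fit added after the data were seen, 5 members were called lower and 4 higher, or 22.5% of the members, where 22.5% of all genes were called. The 5 called without it were among these, with *Slc25a5* lower and *Slc25a1*, *Slc25a23* and *Slc25a44* higher in addition. Without WT 3, 10 members were called lower and 3 higher, the same 5 again included. That is 32.5% of the members, beside 33.6% of all genes called in that fit. The 8 gained are those named above with their values without WT 3. With WT 1, WT 2, *Sirt6* KO 1 or *Sirt6* KO 3 left out in turn, edgeR called 0 members, with 7 to 9 at an unadjusted p under 0.05. The share of all genes at that unadjusted p was not taken in these fits, so the 7 to 9 members have no background beside them. Without *Sirt6* KO 2 edgeR called 2 lower and 0 higher, beside 451 lower and 449 higher of all genes. These fits have 5 libraries, and without *Sirt6* KO 1 only 2 genes lower and 6 higher were called of all those tested. The counts over all genes were 5 lower and 8 higher without *Sirt6* KO 3. They were 264 and 192 without WT 1, and 161 and 105 without WT 2.

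The fold changes themselves moved less than the calls. Over the 6 fits that each lacked 1 library, log2 fold changes ran between -1.51 and -0.99 for *Slc25a25*, between -1.36 and -0.96 for *Slc25a24*, between -2.04 and -1.14 for *Slc25a33*, between -0.50 and -0.42 for *Slc25a15* and between 0.43 and 0.59 for *Slc25a42*. In these fits *Slc25a33* was called in 2 of 6 and each of the other 4 genes in 1 of 6. With the GC trend removed, *Slc25a33* (adjusted p = 0.0450) and *Slc25a25* (adjusted p = 0.0459) were still called lower, which is 5% of the members beside 7.18% of all genes. The other 3 were no longer called, at log2 fold changes of -0.46 for *Slc25a15* (adjusted p = 0.0557), -0.89 for *Slc25a24* (adjusted p = 0.0806) and 0.29 for *Slc25a42*.

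Genes that work beside the carriers were read from the same fit. Carrier proteins are made in the cytosol, pass the TOM complex and are escorted by the small TIM chaperones to the TIM22 complex, which inserts them into the inner membrane. Of 12 import genes tested, 5 were called, in both directions (41.7%, beside 16.4% of all genes). *Timm9* (18.4, 20.8 and 19.0 CPM in WT against 14.7, 14.5 and 14.0 CPM in *Sirt6* KO) and *Timm8a1* (11.7, 15.6 and 8.69 against 5.86, 7.80 and 5.47 CPM), both small chaperones, fell, with log2 fold changes of -0.43 (SE 0.10, adjusted p = 0.0343) and -0.91 (SE 0.24, adjusted p = 0.0452). *Timm10b*, *Timm13* and *Timm22*, the last the channel of the insertion complex, rose by log2 fold changes of 0.48 (adjusted p = 0.0394), 0.44 (adjusted p = 0.0497) and 0.43 (adjusted p = 0.0319). In 11 of the 12 the groups did not overlap, where the share over all genes was 40.1%, and the exception was *Agk*. With the GC trend removed edgeR called 0 of the 26 companion genes described here and in the next paragraphs (11 at an unadjusted p under 0.05), and it also called 0 of them without WT 1, WT 2, *Sirt6* KO 1 or *Sirt6* KO 3 (10 to 13). The share of all genes at that unadjusted p was not taken in these fits. Of all 13670 genes, 7.18% were called with the GC trend removed. In the fits without 1 library just named, these calls ran from 2 lower and 6 higher (without *Sirt6* KO 1) to 264 lower and 192 higher (without WT 1). With all 6 libraries, 14 companion genes had an unadjusted p under 0.05, beside 35.6% of all genes. DESeq2 called 6 lower and 6 higher, beside 26.2% of all genes called in either direction.

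Other transport proteins of mitochondria changed in part. *Mpc2*, a subunit of the pyruvate carrier, fell from 214, 239 and 188 CPM in WT to 107, 155 and 122 CPM in *Sirt6* KO (log2 fold change -0.74, SE 0.17, adjusted p = 0.0302). Its partner *Mpc1*, at 232, 268 and 217 CPM against 181, 223 and 189 CPM, overlapped and did not pass the test (log2 fold change -0.28, SE 0.14, adjusted p = 0.191). Of the outer membrane channels, *Vdac2* fell, from 353, 404 and 399 CPM to 279, 304 and 275 CPM (log2 fold change -0.43, SE 0.12, adjusted p = 0.0491). *Vdac3*, at 470, 508 and 570 CPM in WT and 369, 416 and 398 CPM in *Sirt6* KO, did not pass the test (log2 fold change -0.39, SE 0.13, adjusted p = 0.0803). *Vdac1*, the channel with the most counts in every library, had a log2 fold change of -0.12 (SE 0.14, adjusted p = 0.547). In all 3 channels the groups did not overlap, with *Sirt6* KO lower, where 40.1% of all genes did not overlap in either direction. DESeq2 called 2 of the 3 lower.

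*Smdt1*, the subunit EMRE that joins the calcium uniporter to its gatekeepers, rose from 36.6, 33.5 and 43.2 CPM in WT to 54.5, 58.6 and 57.2 CPM in *Sirt6* KO (log2 fold change 0.59, SE 0.12, adjusted p = 0.0231). The pore gene *Mcu* did not pass the test (log2 fold change 0.25, SE 0.13, adjusted p = 0.219). Family members with other symbols, *Ucp2*, *Ucp3*, *Mtch1* and *Mtch2*, were not called by edgeR, with 0 at an unadjusted p under 0.05 and 0 called by DESeq2. *Ucp3*, the uncoupling protein of muscle, was at 558, 596 and 831 CPM in WT and at 726, 702 and 751 CPM in *Sirt6* KO, within the WT range. Over the 26 companion genes tested, 4 were lower and 4 higher, beside 8.45% and 7.93% of all genes, with a median log2 fold change of 0.04.

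**Figure D5:**
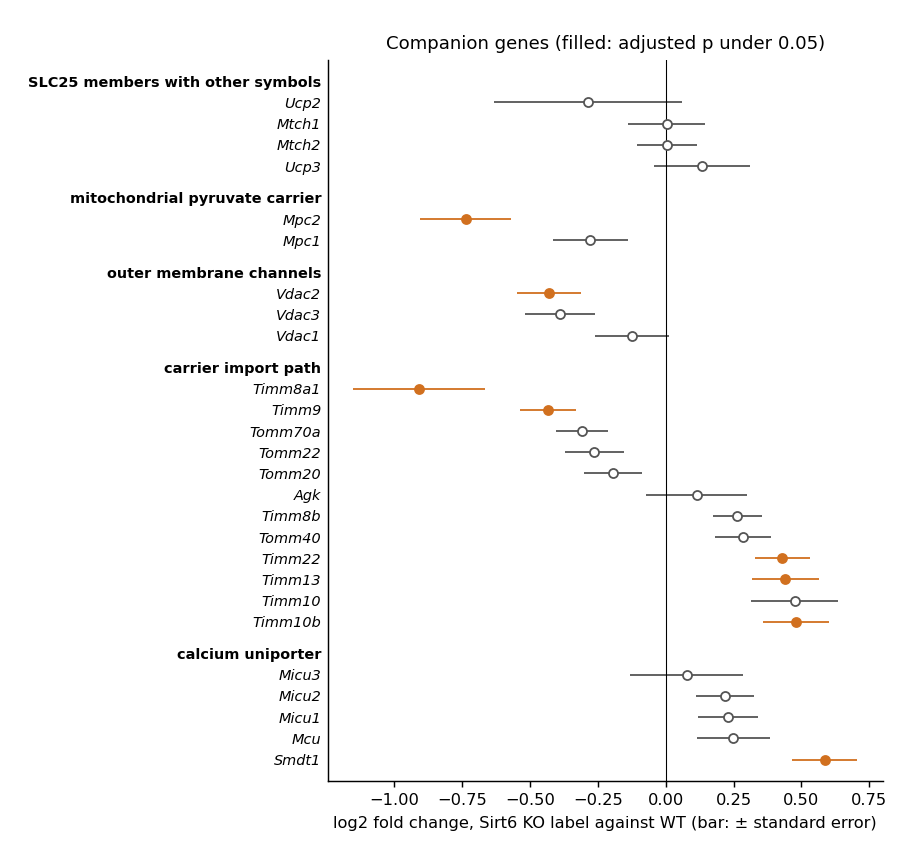
Log2 fold change of the 26 tested companion genes (points, with bars of 1 standard error from the edgeR fit), arranged by list, with the 8 genes past the adjusted p threshold filled. Import genes lie on both sides of 0, from -0.91 for *Timm8a1* to 0.48 for *Timm10b*.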

How the data were processed

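RNA-seq of GAS muscle from 3 WT and 3 *Sirt6* KO mice was analysed from the gene table the authors deposited. Its counts are whole numbers per gene that the authors made without normalization between libraries. The deposited FPKM take gene length and sequencing depth into account. TPM values were also deposited by the authors and were not used here. The submitters' processing notes name HISAT2 (2.1.0), Bowtie2 (2.3.4.1), StringTie (2.1.3b) and the build mm10, whereas the reporting summary names STAR. The library kit differs between methods and labels, the *Sirt6* flox line between methods and reporting summary, and the strand setting of the counting is not given in the sources used here.

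Counts were fitted in edgeR (4.0.16, R 4.3.3, TMM factors, quasi-likelihood test, group as the only term) over the 13670 genes with 60 or more summed counts, with Benjamini-Hochberg adjustment over all of them and calls at an adjusted p under 0.05. The biological coefficient of variation was 24.3%. A gene of 60 counts has about 10 per library, and low members have correspondingly wide errors. CPM are counts scaled to effective library size. The study's test, DESeq2 (1.42.0, Wald), was an alternative, with its size factors in edgeR, other filters, the replicate number as a block, leaving out single libraries, and limma (3.58.1) on log2 FPKM after quantile normalization, with a pseudocount of 1 or 0.1. A lowess GC trend (span 0.3, GC known for 97.3% of genes) and a slow fibre covariate were added after seeing the data. On simulated counts, edgeR recovered 100% of 200 genes changed by a log2 of 2 among 13607, with 6.10% false calls. The simulation gave all genes 1 common spread, left the scarcest genes unchanged and used a change larger than that of any called member. Its recovery and false calls therefore do not carry over to the members. With a GC trend added to the simulated libraries (13598 genes), false calls made up 58.2% of calls in the fit used here. They made up 0.995% once the trend was removed. That trend was set to run in opposite directions in WT and *Sirt6* KO, so many false calls followed from the setting. These shares are no estimate of false calls in the real libraries. Groups came from the sample titles. p-values of the fits set the group difference against the spread between these animals, a spread estimated in part from other genes. No 2 libraries were duplicates.

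Values are given for members past the threshold and the 10 with the highest mean FPKM. 1 tested member is not reported here by name or in the plots and is kept in the counts over the family. Other named members were chosen after their values were seen. The members and all gene lists were chosen with earlier results of these data known. Of 29 companion genes, 27 were in the table and 26 were tested, *Ucp1* having too few counts. Promoters and gene positions are from RefSeq GRCm38.p6, matched by gene ID or symbol for 24462 of 24532 genes, and window annotation from GENCODE.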

Additional observations from a re-analysis of the deposited data

How the results depend on the processing

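All 5 called members kept their direction in all 16 alternatives, and the median log2 fold change of the members stayed between -0.19 and -0.11. Among the 10 most abundant members, *Slc25a11* ran from -0.16 to 0.15 with 1 library left out, turning to 0.15 without WT 2 and to 0.13 without *Sirt6* KO 1, and turned to 0.16 with the slow fibre covariate, *Slc25a12* turned to 0.0035 with that covariate, and *Slc25a39* to -0.15 with the GC trend removed. None of these passed the test, and the cause was not tested. With DESeq2, 3 members were higher, beside 1750 of 13670 genes. With genes above 1 FPKM in at least 1 library, and with limma at either pseudocount, 2 were higher. The genes called higher were 1306 of 10683 with that filter. With limma they were 1453 of 13670 at a pseudocount of 1 and 1439 at 0.1. With no filter, edgeR on 24532 genes called 0 members lower and 0 higher (12 at an unadjusted p under 0.05), and 0 companion genes lower and 1 higher. Of all genes in that fit, 577 were lower and 535 higher. With the GC trend removed, 2 members were lower and 0 higher (10 at an unadjusted p under 0.05), and companion genes 0 lower and 0 higher. Of all 13670 genes, 491 were then lower and 490 higher. For the fits with no filter and with the GC trend removed, the share of all genes at an unadjusted p under 0.05 was not taken. With the slow fibre covariate, 4 members were higher, beside 1485 of 13670 genes. Leaving out 1 library at a time gave 0 to 10 members lower, 0 to 3 higher, and 0 to 5 companion genes lower and 0 to 6 higher, the highest counts without WT 3, with the median between -0.19 and -0.11. Over all genes these fits called 2 to 2239 lower and 6 to 2349 higher, again with the highest counts without WT 3.

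Same-numbered libraries did not pair. Their deviations from the group means correlated at -0.15, 0.36 and 0.25 over 11627 genes, and WT 1 and WT 3 correlated best with another number. With the replicate block, 5 members were lower and 1 higher, 4 of them shared with the fit without it. *Slc25a42* was no longer called with the block (adjusted p = 0.0665), and 2 companion genes were lower and 2 higher. Of all 13670 genes, the block fit called 1048 lower and 916 higher. The 4 members under 60 counts and the scarce *Slc25a13*, *Slc25a2* and *Slc25a53* are limited by depth.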
